A study of Mus musculus with 6 samples.

Results

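The T cell receptor complex and the proteins that carry its first intracellular signals were followed here through 9 genes chosen by function, of 24182 genes in the deposited table. They were the CD3 chains Cd3d, Cd3e and Cd3g, the zeta chain gene Cd247, the coreceptor Cd4, the kinases Lck and Zap70, and the adaptors Lat and Lcp2. Bulk RNA sequencing covered 3 libraries of Sirt2 KO mouse Th17 cells, CD4 T helper cells that make interleukin 17, in which the deacetylase gene Sirt2 had been targeted with CRISPR/Cas9, and in 3 libraries of control cells labelled Sirt2 WT. Before RNA was taken, cells of both genotypes had received anti-CD3 at 0.5 μg/mL and anti-CD28 at 1 μg/mL for 72 hours, although the treatment field of every library reads untreated. The labels give no strain, age, guide or clone, and do not say whether replicates came from separate animals or cultures, so a p-value weighs a difference against library-to-library spread that can be purely technical.

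The T cell receptor has no signalling tail of its own. Its antigen-binding chains sit in the membrane with the CD3 chains and a zeta dimer, whose tails carry paired tyrosine motifs. Lck, brought close by the coreceptor CD4, phosphorylates these motifs. ZAP-70 then docks on them and phosphorylates LAT and SLP-76, the product of Lcp2, on which the downstream enzymes assemble. Antibodies to CD3, as used on these cells, engage this complex directly.

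Sirt2, the targeted gene, had 11.2, 13.5 and 10.9 FPKM in the 3 Sirt2 KO libraries, against 20.7, 19.9 and 21.9 FPKM in the 3 Sirt2 WT libraries (log2 fold change -0.76, SE 0.092, limma adjusted p = 0.0429), so its RNA fell but remained measurable. Every KO library was below every WT library, but the call was lost when KO replicate 1 or any single WT library was left out, with log2 fold changes of -0.73, -0.77, -0.79 and -0.73 (limma adjusted p 0.218 to 0.376). FPKM counts fragments relative to transcript length and to the total of the library, and log2 fold changes here are of FPKM + 1, KO over WT. The summed FPKM of all genes was 303772 to 321734 per library. Sirt2 KO replicate 3 stood apart from the other two. Across 10873 tested genes, longer genes tended to be lower than the WT mean in KO replicates 1 and 2 (Spearman correlation of length with the difference -0.331 and -0.464) and higher in KO replicate 3 (0.227). The summed FPKM of 6 Th17 markers was 265 to 421 in KO and 414 to 438 in WT, and none of the 6 was called. Of their log2 fold changes 0 were above 0, beside 4491 of the 10873 tested genes. Their median was -0.239, beside -0.0252 over all tested genes. Summed FPKM of 8 myeloid markers lay between 7.51 and 12.5 in KO and between 2.74 and 3.40 in WT, with 6 of the 8 higher in every KO library than in every WT library, beside 4.28% of all tested genes. Of these 8 markers 6 were under 1 FPKM in all libraries, and the 2 tested were not called. The CD8 and NK list summed to between 5.49 and 10.1 FPKM in KO and between 5.69 and 6.48 FPKM in WT, with 2 of its 6 measured genes higher in every KO library. Those 2 were untested, and 4 of the 6 were under 1 FPKM in all libraries. The B cell list summed to between 1.18 and 2.26 FPKM in KO and between 0.774 and 1.09 FPKM in WT, with 3 of 6 genes higher in every KO library and Ms4a1 listed at 0 in all 3 WT libraries. Of these 6 genes 0 were tested and 5 were under 1 FPKM in all libraries. The 4.28% covers tested genes only, so untested markers of the 3 lists have no matching share. The part of these markers in the values below was not tested, and in bulk RNA fewer cells of a type and less RNA per cell cannot be told apart.

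Lck is transcribed from a distal and a proximal promoter, and their sequences are shown because the deposited transcripts divide between them. Both run from 250 bases before to 50 bases after a start, 5′ to 3′ on the minus strand of chromosome 4, and come from RefSeq (GRCm38.p6). Capitals mark the letters AGGAAG, an ETS factor core, and TGTGGT, a RUNX site, on either strand.
Lck distal promoter, chr4:129573592-129573891: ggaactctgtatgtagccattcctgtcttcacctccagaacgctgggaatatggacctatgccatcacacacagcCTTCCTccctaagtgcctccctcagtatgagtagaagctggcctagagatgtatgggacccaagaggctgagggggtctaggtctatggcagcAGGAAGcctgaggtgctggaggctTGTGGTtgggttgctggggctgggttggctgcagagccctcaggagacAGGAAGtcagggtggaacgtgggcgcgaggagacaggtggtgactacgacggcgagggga
Lck proximal promoter, chr4:129558323-129558622: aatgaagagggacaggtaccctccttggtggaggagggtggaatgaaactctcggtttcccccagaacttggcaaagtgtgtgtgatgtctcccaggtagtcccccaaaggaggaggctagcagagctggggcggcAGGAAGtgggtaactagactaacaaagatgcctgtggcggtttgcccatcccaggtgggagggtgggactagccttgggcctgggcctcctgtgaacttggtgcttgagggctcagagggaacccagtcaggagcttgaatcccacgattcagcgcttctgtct
The starts lie 15269 bases apart. The distal promoter held the ETS core at 3 places and the RUNX letters at 1, and the proximal promoter held the ETS core at 1. Promoters were found in RefSeq for 8 of the 9 genes. The ETS core lay in the main promoter of 7 of these 8, the exception being Cd3g, and in 35.4% of all 32851 promoters of that length. The RUNX letters lay in 2 of the 8, those of Lck and Lat, and in 16.8% of all. The E-box letters CANNTG lay in 8 of 8 and in 72.3% of all, while the TATA box letters TATAAA lay in 0 of 8 and in 13.6% of all. The motifs were searched on both strands, and a match is only a match of letters.

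None of the 9 genes passed the test between Sirt2 KO and Sirt2 WT. A gene was called at a limma adjusted p under 0.05 over 10873 genes, which gave 12 genes, or 0.110% of those tested, and 0 of the 9. All 9 passed the filter of 1 FPKM in at least 3 libraries. Of the 9 log2 fold changes 8 were above 0, beside 4491 of the 10873. Their median was 0.07, beside a median of -0.0252 over all tested genes. Without KO replicate 2 the median was 0.00323 and 6 were above 0. No member reached an unadjusted p under 0.05 in this fit, beside 610 of all tested genes. Some did in other fits. Cd247 had a limma p of 0.0211 after scaling to a common median, beside 601 genes under 0.05. Without KO replicate 3, Cd3d had 0.0264 and Cd3e 0.0309 by limma, beside 3486 genes. Cd247 was also under 0.05 with no filter, a filter at 5 FPKM and summed transcript FPKM, and Cd3d without WT replicate 3. In 2 of the 9 genes the genotypes did not overlap, beside 11.2% of all tested genes.

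**Figure D1:**
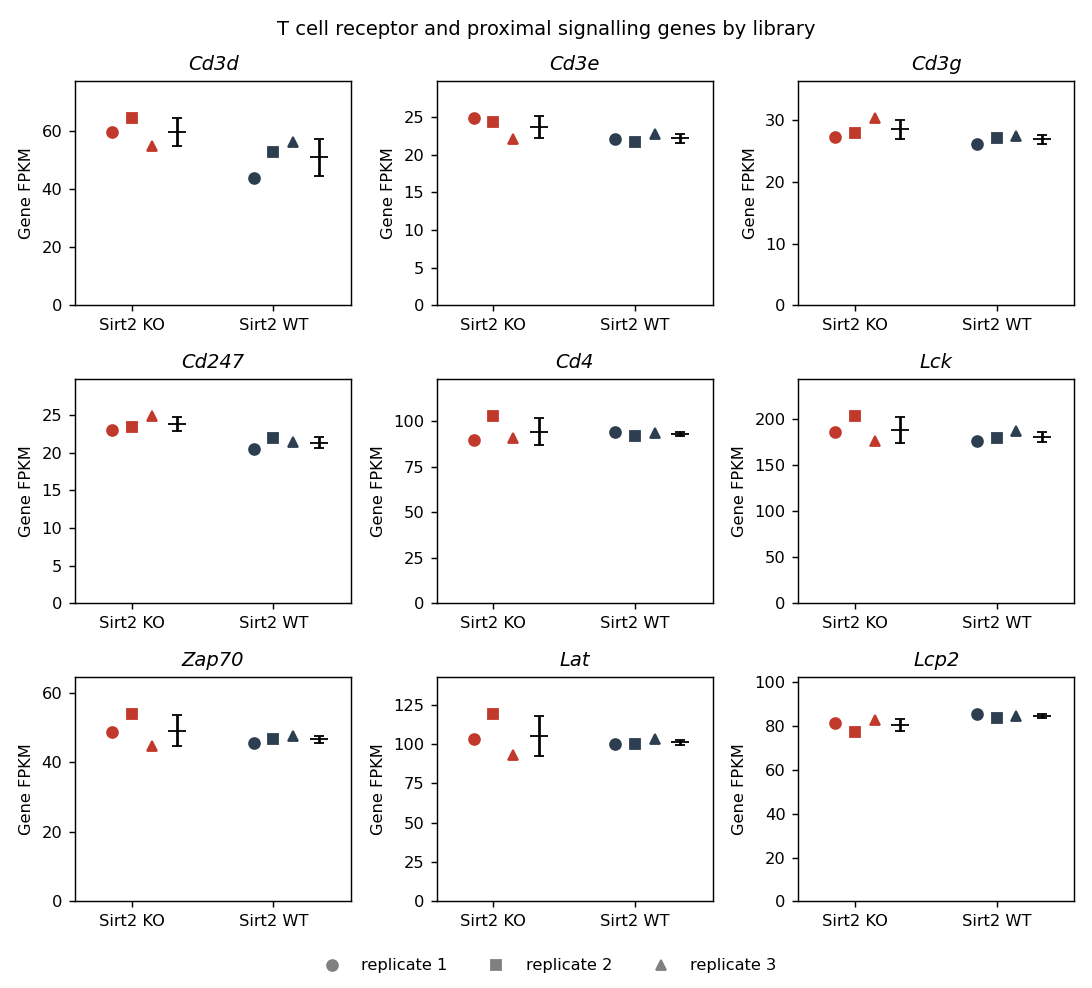
Gene FPKM of the 9 genes in each library, with Sirt2 KO on the left of each panel and Sirt2 WT on the right. Points are libraries, and the bar beside them is the mean ± SD (n = 3 each). The groups overlap in 7 of 9 panels, and the exceptions are Cd247, higher in KO, and Lcp2, lower in KO.

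Cd3d, Cd3e and Cd3g encode the delta, epsilon and gamma chains that flank the antigen-binding chains. They lie together on chromosome 9 (GRCm38), Cd3g at 44969572 to 44980431 on the minus strand, Cd3d at 44981786 to 44987339 on the plus strand and Cd3e at 44998740 to 45009627 on the minus strand. The first bases of Cd3g and Cd3d are 1355 apart, pointing away from each other. Cd3d had 59.7, 64.5 and 54.9 FPKM in Sirt2 KO, against 43.9, 52.9 and 56.3 FPKM in Sirt2 WT. WT replicate 1 was the lowest and KO replicate 2 the highest, and the groups overlapped. Its log2 fold change was 0.23 (SE 0.105, 95% interval -0.0184 to 0.472, limma adjusted p = 0.843). It was 0.12 without WT replicate 1.

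Cd3e had 24.8, 24.3 and 22.1 FPKM in Sirt2 KO, against 22.1, 21.6 and 22.8 FPKM in Sirt2 WT. KO replicate 3 lay among the WT libraries, and Cd3e differed by 0.09 on the log2 scale (SE 0.0695, limma adjusted p = 0.870). Cd3g had 27.2, 28.0 and 30.2 FPKM in Sirt2 KO, against 26.1, 27.1 and 27.4 FPKM in Sirt2 WT. Here KO replicate 3 was the highest library, and Cd3g differed by 0.08 on the log2 scale (SE 0.0667, limma adjusted p = 0.871). The 3 chains therefore did not share an order of libraries: the correlation over 6 libraries was 0.71 for Cd3d with Cd3e, 0.43 for Cd3d with Cd3g and -0.06 for Cd3e with Cd3g, as a description.

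Cd247 on chromosome 1 encodes the zeta chain, which carries most of the complex's signalling motifs, on which ZAP-70 docks. It had 23.1, 23.5 and 24.8 FPKM in Sirt2 KO, against 20.5, 22.0 and 21.5 FPKM in Sirt2 WT. Every KO library was above every WT library, as in 4.28% of all tested genes. The log2 fold change was 0.15 (SE 0.0649, 95% interval -0.000183 to 0.302, limma adjusted p = 0.843). In the authors' deposited table its ratio was 1.12 with a p-value of 0.022 and a q-value of 0.826. Cd247 correlated with Cd3g at 0.90 over the 6 libraries.

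Cd4 on chromosome 6 encodes the coreceptor that binds class II molecules and brings Lck. It had 89.4, 102 and 90.7 FPKM in Sirt2 KO, against 93.7, 91.8 and 93.2 FPKM in Sirt2 WT. KO replicate 2 was above the other libraries and KO replicates 1 and 3 were below them. The log2 fold change was 0.02 (SE 0.0696, 95% interval -0.145 to 0.18, limma adjusted p = 0.969).

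Lck, on the minus strand of chromosome 4, had 186, 203 and 176 FPKM in Sirt2 KO, against 176, 179 and 187 FPKM in Sirt2 WT (log2 fold change 0.06, SE 0.0709, limma adjusted p = 0.894). Zap70, on chromosome 1, had 48.7, 53.9 and 44.9 FPKM in Sirt2 KO, against 45.7, 46.6 and 47.7 FPKM in Sirt2 WT (log2 fold change 0.07, SE 0.0778, limma adjusted p = 0.890). In both kinases KO replicate 2 was the highest and KO replicate 3 the lowest library, with the WT libraries between them. The pair correlated at 0.98 over the 6 libraries, as a description. The ratio of Zap70 to Lck in summed transcript FPKM was 0.251, 0.255 and 0.248 in KO, against 0.251, 0.254 and 0.245 in WT.

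Lat encodes the membrane adaptor that ZAP-70 phosphorylates. It had 104, 119 and 93.4 FPKM in Sirt2 KO, against 100, 100 and 103 FPKM in Sirt2 WT. Its libraries had the same extremes as the kinases, KO replicate 2 highest and KO replicate 3 lowest, and it correlated with Zap70 at 0.97 and with Lck at 0.95. The log2 fold change was 0.05 (SE 0.0904, 95% interval -0.161 to 0.26, limma adjusted p = 0.920). The coefficient of variation was 12.2% among the KO libraries and 1.53% among the WT libraries.

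Lcp2 encodes SLP-76, the cytosolic adaptor that joins LAT to the enzymes downstream. It had 81.3, 77.1 and 82.7 FPKM in Sirt2 KO, against 85.3, 83.8 and 84.5 FPKM in Sirt2 WT. Every KO library was below every WT library, as in 6.88% of all tested genes, and it was the 1 member with a log2 fold change below 0. That value was -0.07 (SE 0.0575, 95% interval -0.206 to 0.0622, limma adjusted p = 0.870). It was -0.02 with length and GC content trends removed and -0.03 after scaling to a common median. Over the 6 libraries Lcp2 ran against Zap70 at -0.88 and against Lck at -0.85.

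KO replicate 3, the library that stood apart, did not decide whether any of the 9 was called. Relative to the WT mean, 7, 8 and 3 of the 9 genes were above it in KO replicates 1, 2 and 3. Without KO replicate 3, 1088 of 10726 genes were called, or 10.1%, and still 0 of the 9 members. The closest were Cd3d, with a log2 fold change of 0.28 and a limma adjusted p of 0.109, and Cd3e, with 0.14 and 0.118. For Cd247 the log2 fold change was then 0.12 with an adjusted p of 0.179, and for Lcp2 it was -0.09 with 0.226. Without KO replicate 2 the log2 fold changes of Lck and Zap70 were 0.0026 and 0.0032, and those of Cd4 and Lat turned to -0.04 each. Over all 6 libraries the members' median coefficient of variation was 5.70%, against 10.3% over all tested genes and 7.23% over the 2429 genes at or above the lowest member mean.

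**Figure D2:**
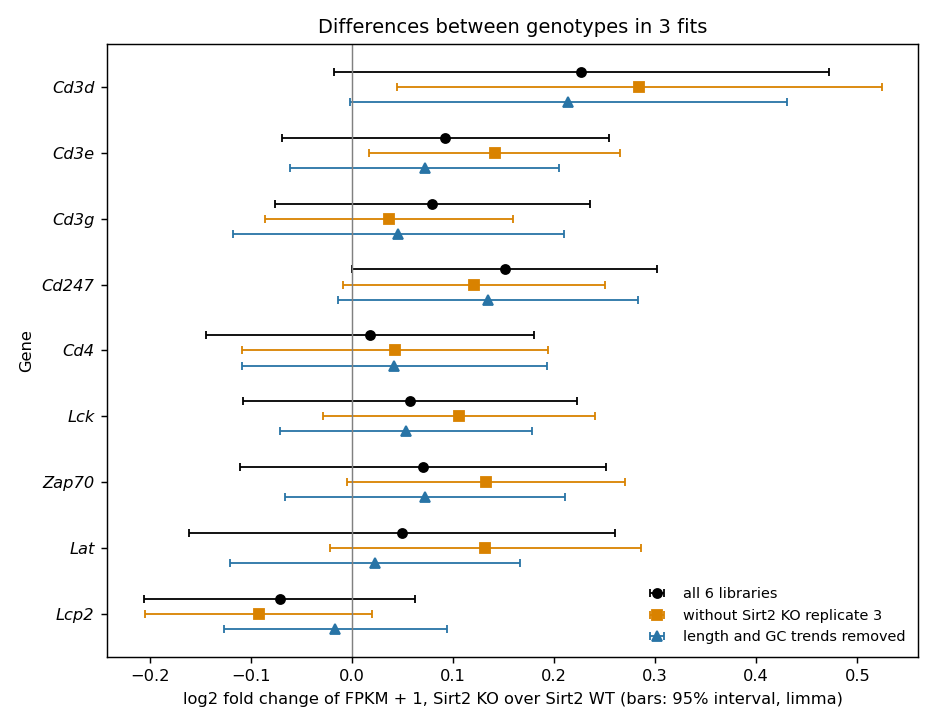
Log2 fold change of FPKM + 1, Sirt2 KO over Sirt2 WT, for the 9 genes with all 6 libraries, without Sirt2 KO replicate 3, and with length and GC content trends removed. Bars are 95% intervals from limma. The estimate for Lcp2 lies below 0 in each fit, and its interval spans 0 in each.

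Levels can be compared between genes only per length, and the deposited gene value divides by all exonic bases of a gene, which lowers genes with many short or rare transcripts. Summed transcript FPKM was therefore used for the order of levels. Averaged over the 6 libraries, Lck stood at 257 FPKM and Lat at 232 FPKM, followed by Cd4 at 122, Lcp2 at 102, Cd3g at 88.4, Cd247 at 74.1, Zap70 at 64.3, Cd3e at 63.1 and Cd3d at 62.4 FPKM. The ranges over libraries overlapped between Lck and Lat, between Lcp2 and Cd3g, and along the run of Cd247, Zap70, Cd3e and Cd3d. They did not overlap between Lat and Cd4, between Cd4 and Lcp2 or between Cd3g and Cd247. In the gene table Cd247 came last at 22.6 FPKM, since its summed transcripts were 3.29 times its gene value, against 1.13 times for Cd3d. The zeta to gamma ratio, Cd247 over Cd3g, was 0.868, 0.867 and 0.845 in Sirt2 KO, against 0.813, 0.825 and 0.810 in Sirt2 WT, and was the 1 of 9 such ratios in which the genotypes did not overlap. Among single genes, the groups did not overlap in 11.2% of those tested, and no such share was computed for ratios. The Cd247 to Cd3g ratio was singled out after its values were seen.

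The members made most of their RNA as a single transcript each. Of 45 transcripts in the deposited table, 17 passed the filter and 0 were called, beside 8 of 19184 transcripts, or 0.0417%. The main transcript held 84.6% of summed FPKM in Lat and between 95.1% and 99.4% in the other members. That of Cd247, the zeta form of 164 codons, had 73.8, 72.4 and 77.4 FPKM in Sirt2 KO, against 63.1, 69.5 and 66.8 FPKM in Sirt2 WT (limma adjusted p = 0.885). In the authors' deposited table this transcript had a ratio of 1.12 and a q-value of 0.0256. The eta form, whose different last exon gives 206 codons, made up 3.38% of Cd247 and varied between 0.757 and 3.69 FPKM across the 3 KO libraries and between 1.32 and 3.16 FPKM across the 3 WT libraries. That last exon lies inside Pou2f1 on the opposite strand, and strand-specific counting is not stated, so reads of the pair cannot be told apart there.

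Lat differed from the rest in having a second abundant transcript. The forms differ by a coding exon of 30 bases at chr7:126368186-126368215 on the minus strand (GRCm38), which adds 10 codons. The junctions are shown from the reference transcripts with the exon in capitals and 20 bases on each side.
Lat with the exon: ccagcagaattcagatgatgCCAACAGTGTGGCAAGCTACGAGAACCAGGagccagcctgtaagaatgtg
Lat without the exon: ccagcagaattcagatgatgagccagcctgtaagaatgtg
Among the 2 forms, the one without the exon made up 11.3%, 11.4% and 14.2% in Sirt2 KO, against 10.1%, 9.89% and 13.8% in Sirt2 WT. Replicate 3 was the highest in both genotypes and the groups overlapped. At the level of transcripts, the form without the exon averaged 27.8 ± 2.27 FPKM in KO and 24.5 ± 5.11 FPKM in WT (SD, n = 3 each, limma adjusted p = 0.914).

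Lck came almost wholly from its distal promoter. The small proximal part, as a sum of its transcripts, was lower in every Sirt2 KO library than in every Sirt2 WT library. The distal transcript had 255, 277 and 238 FPKM in KO, against 235, 236 and 251 FPKM in WT. Transcripts from the proximal starts summed to 2.60, 3.94 and 4.99 FPKM in KO, against 8.67, 10.8 and 7.47 FPKM in WT. The proximal share of Lck was 1.00%, 1.40% and 2.04% in KO, against 3.55%, 4.32% and 2.87% in WT, a difference of -2.10 percentage points (exact two-sided permutation p = 0.1, the smallest that 3 against 3 allows). This share was chosen after its values were seen. Among single genes, every KO library was below every WT library in 6.88% of those tested. No such share was computed for sums of transcripts or for shares of a gene. Groups of 3 without overlap always give a permutation p of 0.1, so it is no evidence of a difference. A minor proximal transcript had 0.427, 0.890 and 0.267 FPKM in KO and 2.56, 0 and 3.18 FPKM in WT. The larger proximal transcript by itself also overlapped between genotypes, with 2.14, 3.05 and 4.72 FPKM in KO and 6.09, 10.8 and 4.27 FPKM in WT (limma adjusted p = 0.885). That transcript and the distal one encode the same 509 codons and differ only at their 5′ exons, which are the bases that tell them apart.

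**Figure D3:**
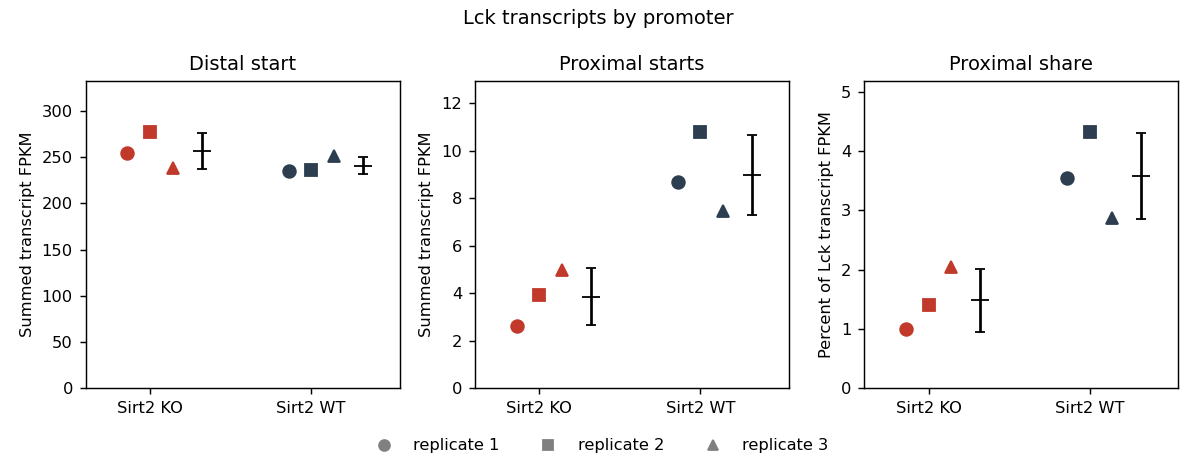
Summed FPKM of Lck transcripts from the distal start and the proximal starts, and the proximal share of all Lck transcript FPKM in percent, with Sirt2 KO left of Sirt2 WT. Points are libraries and bars the mean ± SD (n = 3 each). The proximal share is 1.00% to 2.04% in KO and 2.87% to 4.32% in WT, and was chosen after its values were seen.

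The wider receptor pathway was read from 6 lists of 57 genes, of which 54 were in the table and 51 were tested. None was called in either direction, and 4 had an unadjusted limma p under 0.05. The log2 fold change was above 0 in 22, beside 4491 of all 10873 tested genes. Its median was -0.0111, beside -0.0252 over all tested genes. In 8 of the 51 the groups did not overlap, beside 11.2% of all tested genes. KO was above in 6, beside 4.28% of all tested genes, and below in 2, beside 6.88%.

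Of the constant regions of the receptor's own chains, all 3 tested had log2 fold changes above 0, and 0 were called. Trac, the alpha chain, had 197, 199 and 199 FPKM in Sirt2 KO, against 188, 183 and 186 FPKM in Sirt2 WT (log2 fold change 0.09, limma adjusted p = 0.843). Its KO libraries were all above its WT libraries, as in 4.28% of all tested genes. Trbc2, a beta chain, averaged 299.8 ± 29.1 FPKM in KO and 269.4 ± 10.5 FPKM in WT (SD, n = 3 each), and Trbc1, the other beta chain, 191 ± 12.3 FPKM in KO and 180.4 ± 6.22 FPKM in WT. Trbc1 and Trbc2 are near-identical, so their split is uncertain.

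Of 5 tested coreceptors and costimulators, 0 were called and 0 had a log2 fold change above 0. That of Cd6 was only -6.9e-05, and it was 0.0416 after scaling to a common median. Cd2, an adhesion receptor, had 97.3, 126 and 157 FPKM in Sirt2 KO, against 142, 142 and 152 FPKM in Sirt2 WT, so the KO libraries spread on both sides of WT. Cd5, an inhibitory surface receptor, averaged 126 ± 13.3 FPKM in KO and 134 ± 4.38 FPKM in WT, and its relative Cd6 62.1 ± 6.64 FPKM in KO and 61.9 ± 2.19 FPKM in WT. Among 6 tested kinases 3 were above 0 and 0 called. Csk, which inhibits Lck, averaged 68.5 ± 3.38 FPKM in KO and 67.8 ± 1.11 FPKM in WT. Fyn, a kinase related to Lck, averaged 33.4 ± 2.10 FPKM in KO and 32.0 ± 0.612 FPKM in WT.

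Of 7 phosphatases 2 had a log2 fold change above 0 and 0 were called. Ptpn6, the inhibitory phosphatase SHP-1, averaged 80.3 ± 5.27 FPKM in Sirt2 KO and 74.1 ± 1.97 FPKM in Sirt2 WT. Ptprc, the CD45 phosphatase that activates Lck, averaged 48.3 ± 6.53 FPKM in KO and 49.9 ± 1.59 FPKM in WT, and Ptpn2 37.5 ± 2.62 FPKM in KO and 37.6 ± 0.765 FPKM in WT. Of 17 adaptors and effectors 7 were above 0 and 0 called. The adaptor Grb2 averaged 51.5 ± 3.14 FPKM in KO and 48.6 ± 0.346 FPKM in WT, the exchange factor Vav1 40.4 ± 2.17 FPKM in KO and 41.6 ± 1.33 FPKM in WT, and the actin regulator Was 37.9 ± 2.10 FPKM in KO and 37.6 ± 0.739 FPKM in WT. Of 13 negative regulators 7 were above 0 and 0 called. Dgkz, a kinase that consumes diacylglycerol, averaged 22.4 ± 1.06 FPKM in KO and 22.0 ± 0.162 FPKM in WT.

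Several pathway genes outside the core set depended on KO replicate 3. Without it, 11 of 50 tested genes of the lists were called, beside 10.1% of all genes. Of these 9 were lower in KO, a direction called in 659 of 10726 genes (6.14%), and 2 were higher, called in 429 of 10726. Cblb, a ubiquitin ligase that restrains receptor signalling, had 12.3, 12.8 and 23.1 FPKM in Sirt2 KO, against 18.4, 18.2 and 17.3 FPKM in Sirt2 WT. Its log2 fold change was -0.21 with all libraries (limma adjusted p = 0.877) and -0.49 without KO replicate 3 (limma adjusted p = 0.00905). Cd28, the costimulator engaged by the second antibody, had 34.6, 32.3 and 59.6 FPKM in KO, against 48.6, 47.9 and 44.5 FPKM in WT. In both genes KO replicates 1 and 2 were the lowest libraries and KO replicate 3 the highest.

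Plcg1, the phospholipase recruited by LAT, had 14.4, 17.1 and 23.6 FPKM in Sirt2 KO, against 22.7, 22.6 and 20.7 FPKM in Sirt2 WT. Dgka, a second diacylglycerol kinase, had 12.2, 13.8 and 19.4 FPKM in KO, against 18.4, 16.7 and 18.2 FPKM in WT. The others called lower without that library were Grap2, Ptprj, Cbl, Lax1 and Ptpn22, and those called higher were Trbc2 and the adaptor Sh2d2a. Apart from Cblb, Dgka and Trbc2, these genes were named after their values were seen. The 9 core genes have main transcripts of 1023 to 3644 bases. Those of the 9 genes called lower run between 1294 bases for Grap2 and 11372 bases for Cbl, and 4 of them, Grap2, Lax1, Ptpn22 and Dgka, lie within the range of the core genes. The part of transcript length in these differences was not tested.

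**Figure D4:**
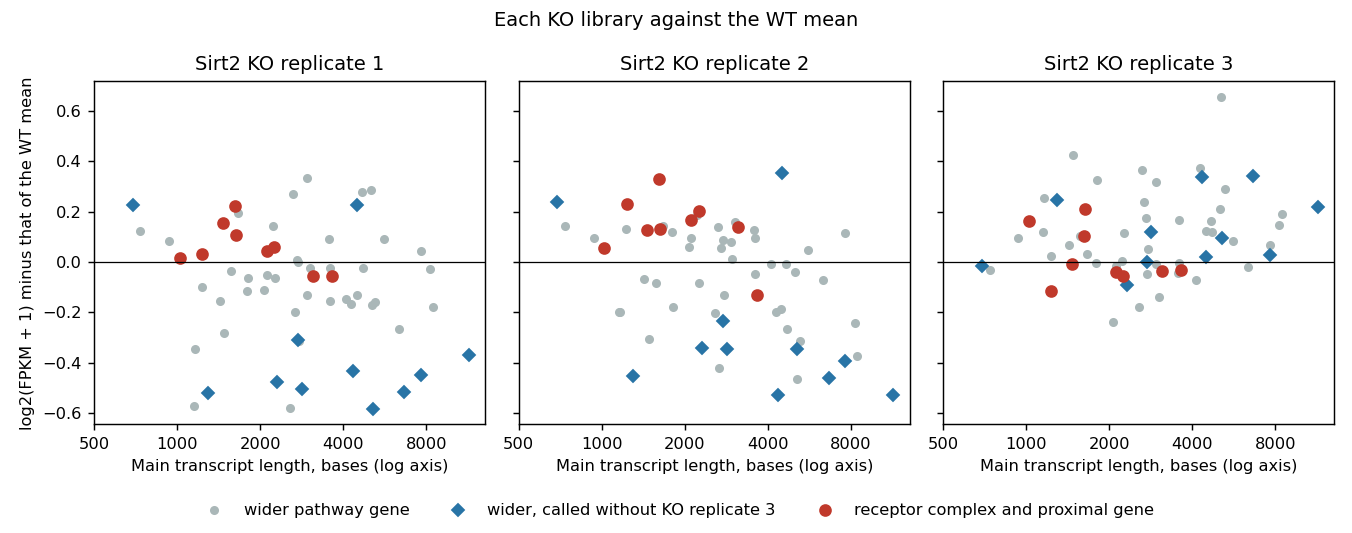
Difference from the Sirt2 WT mean in log2(FPKM + 1) against main transcript length in bases (log axis), in a panel for each Sirt2 KO replicate. Red circles are the 9 core genes, blue diamonds the 11 pathway genes called without KO replicate 3 and grey circles the other tested pathway genes. In KO replicates 1 and 2 most blue diamonds lie far below 0, and in KO replicate 3 most lie above it. They were called from KO replicates 1 and 2 against WT, so their distance from 0 in those panels follows from that choice.

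Among the genes whose pattern over the 6 libraries was most like the mean of the 9 standardised members were Sdhc (Pearson correlation 0.997), a subunit of succinate dehydrogenase, Eif3f (0.997), a translation initiation factor subunit, Tprn (0.995), and Ndufa8 (0.987), a respiratory complex I subunit. The most opposed were Txlng (-0.997), Cep250 (-0.995) and Thoc2 (-0.994). Sdhc had 29.1, 32.4 and 27.9 FPKM in Sirt2 KO, against 26.4, 27.4 and 28.6 FPKM in Sirt2 WT, again with KO replicate 2 the highest. These correlations describe 6 libraries, for genes chosen from among 10873. The mean of the standardised members ranked the libraries in the same order as the summed FPKM of all genes. That sum was 311379, 321734 and 306034 in KO replicates 1, 2 and 3, against 303772, 304322 and 310208 in the WT replicates. The part of this sum in the members' shared pattern was not tested. The 9 members together made up 0.202% to 0.216% of the summed gene FPKM of a library.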

How the data were processed

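RNA from 3 Sirt2 KO and 3 Sirt2 WT libraries was analysed from the gene and transcript tables that the authors deposited, in FPKM per library per the file headers. Per the submitters' processing notes, cutadapt, FastQC, HISAT2, StringTie, DESeq2 and edgeR were used, with no versions or roles given. The notes name the build mm9, yet 71040 of 73430 transcripts found in GENCODE M21 had identical GRCm38 coordinates, as did all 45 of the members, so GRCm38 is used. The deposited gene FPKM corresponds to transcript FPKM times length, summed and divided by a whole number of bases, which matched the gene's GENCODE exonic bases within 0.1 percent for 23732 of 24125 genes compared. The authors also deposited a ratio, its log2, a p-value and a q-value per feature, and the tool behind them is not stated in the labels or headers. Their deposited Gene Ontology table, with counts and other numbers, was not used.

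The tables hold no counts, so depth is unknown, whole reads were not recovered and no counting interval is given. Features at 1 FPKM or more in at least 3 libraries were put on the log2(FPKM + 1) scale and compared by limma (version 3.58.1, R 4.3.3), fitted with a mean-variance trend and Benjamini-Hochberg adjustment over all tested features, and adjusted p under 0.05 was called. This scale understates changes of low genes. Tests were checked on data simulated with the spread of these libraries. Log2 changes of 0.25, 0.5, 1 and 2 were called in 0%, 36%, 84% and 98% of the genes given them. For transcripts the percentages were 0%, 2%, 16% and 62%. The largest log2 fold change of a member was 0.23, so a lack of calls says little about differences of that size. The members and lists were chosen with earlier results of these data known. Besides the members, Sirt2 and the 3 genes of highest mean per pathway list are named, with transcripts of at least 10 percent of their gene; some genes that this rule picks are not reported here. Same-numbered libraries did not deviate together, so the numbers were not used as pairs. Alternatives were other scaling, filters, pseudocount, threshold, no mean trend, a replicate block, removal of length and GC trends, and leaving out each library, plus, chosen after seeing the data, summed transcript FPKM. Figures were drawn with matplotlib 3.10.9.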

Additional observations from a re-analysis of the deposited data

How the results depend on the processing

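None of the 9 members and none of their transcripts was called under any alternative run. Genes called numbered 12 in the reported fit, 5 with a filter at 5 FPKM, 20 at adjusted p under 0.1, 19 with summed transcript FPKM and 0 to 1088 when 1 library was left out, with 1088 without KO replicate 3. Transcripts called numbered 8, and 4 with no filter, 25 with no mean trend, 27 at adjusted p under 0.1, 3 with the replicate block and 1 to 6 when 1 library was left out. The replicate block gave 13 genes, and the numbers pair no libraries in the labels (same-number correlations of deviations 0.00668, -0.017 and -0.0756). Wider pathway genes called numbered 0, and 0 to 11 when 1 library was left out. Scaling to a common median moved the median of all genes from -0.0252 to 0.0111 and that of the members to 0.111. It turned the log2 fold change of Cd6 to 0.0416, of Ptpn2 to 0.0352 and of Vav1 to 9.327e-05. Removing length and GC trends turned Cd6 to 0.0152 and Ptprc to 0.0378. Summed transcript FPKM turned Csk to -0.00762 and Ptpn2 to 0.00687. With 1 library left out, log2 fold changes ranged from -0.0442 to 0.0534 for Cd4, -0.041 to 0.132 for Lat, -0.0803 to 0.0684 for Cd6, -0.0251 to 0.0436 for Csk, -0.143 to 0.0492 for Ptprc, -0.0601 to 0.033 for Ptpn2, -0.0685 to 0.00262 for Vav1, -0.0338 to 0.0396 for Was and -0.0134 to 0.047 for Dgkz. Sirt2 stayed lower in KO in every fit, with an adjusted p of 0.0766 after median scaling, 0.131 with no filter, 0.0519 with a filter at 5 FPKM, 0.0621 with no mean trend, 0.135 with the replicate block and 0.00905 to 0.376 when 1 library was left out. None of the genes that turned sign was called in any fit, and the cause was not tested. With depth unknown and 3 libraries per genotype, small differences in the members could not be resolved.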
